A study of Homo sapiens with 2 samples.

Results

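Chromosome 19 was described along its length in maps of accessible chromatin from Z-138 cells, an established line of mantle cell lymphoma, a malignancy of mature B cells. All regions of both deposited peak lists that lie on chromosome 19 were taken, which gave 1524 of 55124 regions in the control library and 1328 of 41540 in the knockdown library (chromosomes 1 to 22 and X). One library came from cells with a control shRNA and the other from cells with an shRNA against SMARCA4, and doxycycline was in the medium of both. SMARCA4 is an ATPase of the SWI/SNF complexes, which slide and evict nucleosomes. The labels give 1 library per group, with no second culture, and name no drug treatment; the peak names of both lists hold the term DMSO, a common solvent control, which the labels do not explain. A peak list does not measure how far SMARCA4 was depleted. The series' design places the line in a study of the response to ibrutinib, a BTK inhibitor, and venetoclax, a BCL2 inhibitor.

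The assay, ATAC-seq, uses a transposase that inserts adapters where DNA is not covered by nucleosomes. Chromosome 19 is the most gene-dense human chromosome and carries many genes of the KRAB zinc-finger family, DNA-binding proteins that recruit a corepressor and heterochromatin, often to transposable elements. These genes lie in tandem clusters whose gene bodies are known to carry heterochromatin marks while their promoters are open. A RefSeq gene table of GRCh38.p14 lists 255 protein-coding genes with a ZNF or ZFP symbol on chromosome 19, or 47.4% of the 538 in the genome. The longest run of neighbouring protein-coding genes with such a symbol there has 27 members, from ZNF737 to ZNF681. That table is of another build than the lists (hg19), so no region below is tied to a gene, and no sequence is given.

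The chromosome was divided by hg19 position. The short arm is taken here up to 19500 kb, and the stretch from 19500 to 24500 kb is called the zinc-finger block. The long arm was divided into proximal (28 to 36 Mb), middle (36 to 52 Mb) and distal (52 to 59 Mb) parts. Between 24500 kb and 28 Mb neither list had a region, and 12 control and 11 knockdown regions lay beyond 59 Mb. Chromosome 19 was chosen by its high share of control regions with a knockdown partner, and its divisions with earlier results of these data known, so the comparison between the libraries is given as a description with no test. Intervals are exact 95% intervals, or order-statistic intervals for medians, and cover counting error over regions only. Recovered read numbers were 6.89 M for the control and 9.76 M for the knockdown library if 2.7 Gb of genome are assumed. Listed summits on chromosome 19 started at 3 stacked reads for the control and at 4 for the knockdown, so a region missing from a list was below the caller's limit and was not shown to be closed.

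On chromosome 19 the control regions kept a partner (at least 1 bp of overlap) in the knockdown list more often than on the other chromosomes. This share chose the chromosome. The observed share on chromosome 19 was higher in every band of enrichment examined, which restates that choice and is not further support. A partner was found for 1101 of its 1524 control regions, or 72.2%, where the percentage over all chromosomes was 60.5%. On the gene-rich chromosomes 16, 17 and 22 it was 63.9%, 63.7% and 61.7%. The fold used to rank regions is the deposited enrichment of the summit over its expected background. Below a fold of 4, 20 of 73 chromosome 19 regions had a partner, or 27.4% (17.6 to 39.1%), against 17.5% on the other chromosomes. From 5 to 6 it was 168 of 247, or 68.0% (61.8 to 73.8%), against 47.7%. From 8 to 10 it was 214 of 221, or 96.8% (93.6 to 98.7%), against 83.6%. The difference was thus spread over weak and moderate regions alike. It was small only from a fold of 15 upward, where 15 of 15 had a partner (78.2 to 100%) against 98.9% elsewhere. That value lies inside the interval.

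**Figure D1:**
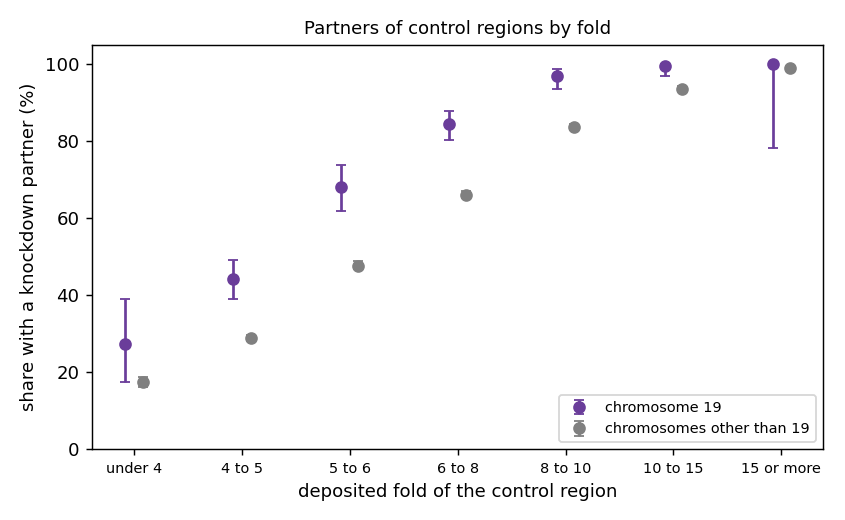
Share of control regions with a knockdown partner (vertical axis, percent) in bands of the deposited fold (horizontal axis), for chromosome 19 and for the other chromosomes; bars are exact 95% intervals. From a fold of 5 to 6 the share was 68.0% on chromosome 19 and 47.7% elsewhere, and the values meet only near 100%.

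Nearly all strong control regions of chromosome 19 had a partner. A fold of at least 10 was reached by 193 of its control regions, or 12.7%, where the percentage over all chromosomes was 18.7%. Of these, 192 had a knockdown partner, or 99.5% (97.1 to 100.0%), where the percentage over all chromosomes was 94.7%. On chromosomes 16, 17 and 22 it was 95.3%, 97.2% and 98.0%. The exception on chromosome 19 lay in the distal long arm and is described there. In the knockdown list, 266 regions of chromosome 19 reached this fold out of 1328, against 23.1% over all chromosomes, and 265 of them had a control partner, against 99.5% over all chromosomes. Because the knockdown library is deeper, the same fold limit admits weaker regions there, and the 193 and 266 are not counts of like strength.

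The knockdown regions of chromosome 19 did not show the same distance from the rest of the genome. A control partner was found for 1076 of 1328, or 81.0% (78.8 to 83.1%), where the percentage over all chromosomes was 79.4%. From a fold of 4 to 5 the share was 43.0% (35.0 to 51.3%) on chromosome 19 and 48.3% elsewhere. From 5 to 6 it was 63.7% against 63.9%, and from 6 to 8 it was 85.9% (82.0 to 89.2%) against 81.0%. From 8 to 10 it was 98.4% (96.0 to 99.6%) against 95.5%. Below a fold of 6 the shares of chromosome 19 were the lower ones, but their intervals included the values elsewhere. A change of order with fold is therefore not shown in this list.

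At regions present in both lists, the reads stacked at the summit were compared after scaling. The knockdown library had 1.42 times the reads of the control, but the recovered extension length was 89 bp for the knockdown and 94 bp for the control, so a knockdown summit was expected to be 1.34 times as high. Summit ratios were scaled by 1.34, and ratios of surrounding reads, counted without extension, by 1.42. Control and knockdown summits of the 1101 pairs on chromosome 19 had medians of 9 and 11 reads. The log2 ratio of knockdown to control had a median of -0.10 (-0.13 to -0.06) on chromosome 19 and -0.25 (-0.25 to -0.24) on the other chromosomes. A ratio below 0 was found in 657 pairs, or 59.7%, where the percentage over all chromosomes was 70.4%. A log2 ratio of -1 or lower was found in 49 pairs, or 4.45%, against 11.0% over all chromosomes, and one of 1 or higher in 18 pairs, or 1.63%, against 1.36% over all chromosomes. Listed knockdown summits had at least 4 reads, which limits how low the ratio of a weak control region can be. Among pairs with a control fold of at least 10, 171 of 192 on chromosome 19 were below 0, or 89.1%, against 88.3% over all chromosomes. Their medians were -0.32 (-0.42 to -0.26) and -0.42, and choice by the control value favours low ratios. The lower share of falling pairs on chromosome 19 was thus not seen among strong pairs. Each control region with a partner gives 1 pair, so neighbouring control regions can share 1 knockdown summit. A weak control region beside a strong one can then have a high ratio, and pairs are not independent. Another depth scale would shift the log2 ratios of every chromosome by the same amount. Depth also sets which weak regions are listed, and control summits of pairs on the other chromosomes had a median of 11 reads. The part of depth in the distance between chromosomes was not tested. Among 23 chromosomes the median ratio of chromosome 19 ranked 1, followed by chromosomes 22, 17 and 16, at -0.13, -0.14 and -0.15. These are also gene-rich chromosomes.

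Pair ratios depend on the strength of a pair, and chromosome 19 has fewer strong regions. Against all pairs of the genome in the same band of mean summit pileup, the pairs of chromosome 19 lay 0.14 higher (0.11 to 0.19, log2). Those of chromosomes 22, 17 and 16 lay 0.12, 0.11 and 0.08 higher. The reads counted in the 10 kb around a summit, which the caller used as local background, were listed for 831 of the pairs of chromosome 19. Their knockdown to control ratio had a median log2 of -0.02 (-0.04 to 0.00) on chromosome 19 and -0.14 on the other chromosomes. It was -0.01 on chromosome 22 and -0.05 on chromosomes 17 and 16. On chromosome 19 both ratios thus lay above those of the other chromosomes. The 10 kb hold the reads of the summit itself, so the ratios share reads and their likeness is partly built in. Scaled to these surrounding reads, the summit ratio was -0.08 (-0.10 to -0.03) on chromosome 19 and -0.13 (-0.14 to -0.13) elsewhere. On chromosomes 22, 17 and 16 it was -0.13, -0.10 and -0.08.

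Regions on chromosome 19 were also wider than elsewhere, and more so in the knockdown list. The same held to a lesser degree on chromosomes 16, 17 and 22. Their median widths were 176, 174 and 169 bp in the control list and 185, 181 and 187 bp in the knockdown list. On chromosome 19, control regions had a median width of 191 bp (interquartile range 123 to 296 bp). Knockdown regions there had one of 222 bp (140 to 340 bp). On all chromosomes other than 19 the medians were 160 and 162 bp. Within pairs, the median ratio of knockdown to control width was 1.06, with 1.05, 1.02 and 1.01 on chromosomes 22, 17 and 16. It was 0.979 on all chromosomes other than 19. Regions of 600 bp or more on chromosome 19 numbered 32 in the control list, or 2.10%, where the percentage over all chromosomes was 2.68%. In the knockdown list there were 48, or 3.61%, against 4.85% over all chromosomes. The greater width was therefore one of ordinary regions and not of very wide ones. With width added to fold, the excess of the control share over the share given by strength went from 14.6 to 10.9 percentage points. Chromosomes 22, 17 and 16 also had an excess, of 7.88, 6.67 and 5.24 points by fold alone. With width added it was 5.01, 4.29 and 3.11 points.

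Partners on chromosome 19 had summits farther apart than the genome as a whole, as did those on chromosome 22. The median distance between the summits of a pair was 41 bp, against 28 bp on the other chromosomes, and 57.8% of pairs had summits within 50 bp of each other, against 71.8%. On chromosome 22 the values were 42 bp and 56.0%. A knockdown region met at least 2 control regions in 57 cases, or 4.29%, where the percentage over all chromosomes was 2.73% and that on chromosome 16 was 4.48%. A control region met at least 2 knockdown regions in 34 cases, or 2.23%, against 1.43% over all chromosomes. The part of such shared regions in the summit distances and pair ratios was not tested.

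The blocks of the chromosome differed. The order of the control share with a partner was distal long arm, zinc-finger block, middle long arm, short arm and proximal long arm. The first 4 had intervals that overlapped in part, and only the proximal long arm had an interval below those of the others. Set against the share that fold alone would give, the short arm, middle and distal long arm stood above it. For the zinc-finger block the excess was 7.88 percentage points (-2.81 to 16.3). This interval includes 0, but also the 15.1 and 15.7 points of the short arm and middle long arm. A difference of the zinc-finger block from those 2 blocks is therefore not shown. Its share given by fold, 70.6%, was the highest of the blocks, and all 39 of its strong control regions had a partner. Both limit how large its excess could be. The proximal long arm did not stand apart from the share given by fold, and its interval (-11.1 to 10.4) lay below 15.1 and 15.7.

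**Figure D2:**
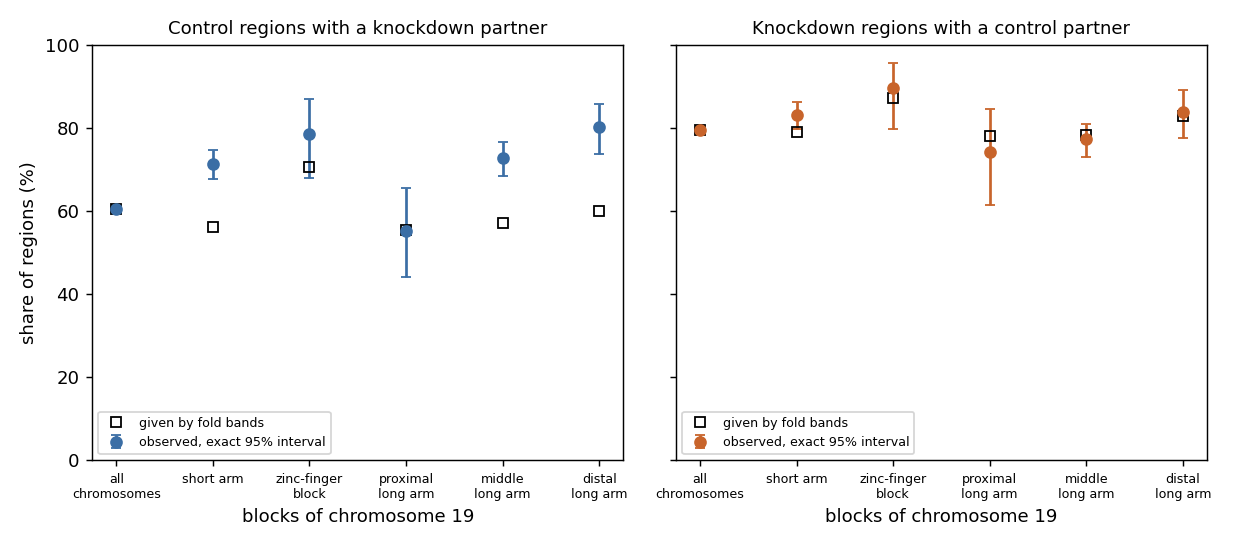
Share of regions with a partner in the other library (vertical axis, percent) for all chromosomes and for each block of chromosome 19, control regions on the left and knockdown regions on the right. Filled points are observed shares with exact 95% intervals, and open squares are the shares given by fold bands over the genome; in the control list the distal long arm stands at 80.3% against 59.9%, and the proximal long arm at 55.1% against 55.3%.

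The short arm held 670 control and 568 knockdown regions, or 34.4 and 29.1 per Mb, the densest block in both lists. A partner was found for 477 control regions, or 71.2% (67.6 to 74.6%), against 56.1% given by fold. In the opposite direction, 472 knockdown regions had a control partner, or 83.1% (79.8 to 86.1%), against 79.1% given by fold. This was the only block whose knockdown share had an interval above the share given by fold, and with fold and width together the given share was 82.7%, inside the interval. All 73 control regions with a fold of at least 10 and all 102 such knockdown regions had a partner, with exact lower bounds of 95.1% and 96.4%.

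The pairs of the short arm had a median log2 ratio of -0.06 (-0.12 to -0.01), and their surrounding reads had one of 0.00 (-0.03 to 0.02). The highest control fold of the short arm, 15.2 with 23 stacked reads, was at 1045294 to 1045540. Its knockdown partner reached 12.5 with 21 reads, a depth-scaled log2 ratio of -0.56. The widest control region, from 6424819 to 6425614 (796 bp), had 18 control and 34 knockdown reads, a ratio of 0.49 in the other direction. Of the control regions without a partner, that from 7306146 to 7306329 had the highest fold, 8.87 on 10 reads, and lay 7.92 kb from any knockdown region. Of the knockdown regions without a partner, that from 12792644 to 12792841 led with 8.53 on 13 reads, but a control region was 0.269 kb away.

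The zinc-finger block was sparse but held the most strongly enriched regions of the chromosome. It had 79 control and 67 knockdown regions, or 15.8 and 13.4 per Mb. Median folds were 9.99 for control and 10.4 for knockdown regions, against 6.21 and 6.90 on the chromosome without this block. A fold of at least 10 was reached by 39 of the 79 control regions, or 49.4% (37.9 to 60.9%), and by 36 of the 67 knockdown regions, or 53.7% (41.1 to 66.0%). These shares stand beside the 18.7% and 23.1% of all chromosomes given above. Folds fell into a strong and a weak set, with few regions in between.

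**Figure D3:**
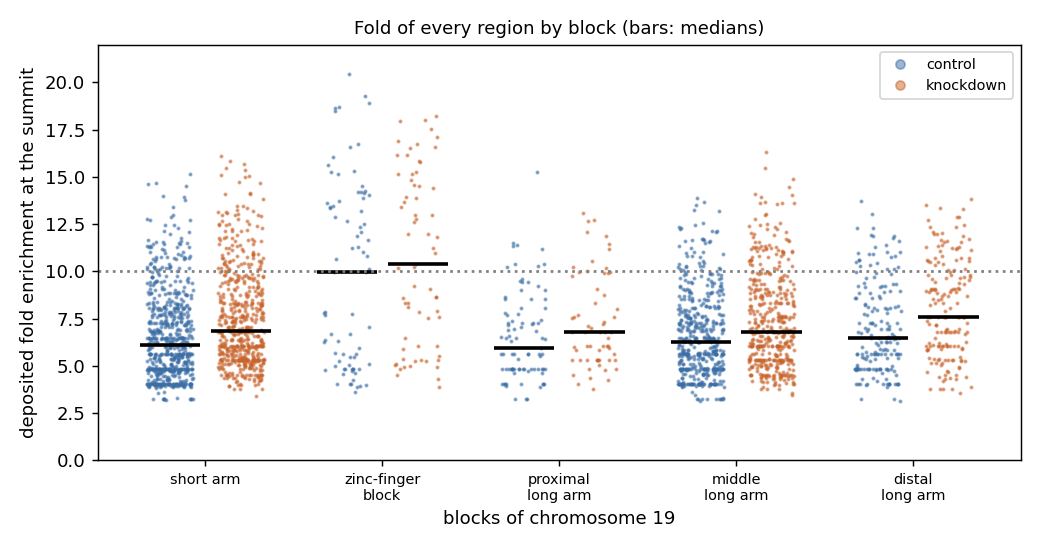
Deposited fold (vertical axis) of every region on chromosome 19 by block, control in blue and knockdown in orange; each point is 1 region, black bars are medians and the dotted line marks a fold of 10. In the zinc-finger block the medians are 9.99 and 10.4, near the dotted line, and in the other blocks they lie between 5.97 and 7.57.

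The strong regions of this block were present in both libraries, as most such regions of the genome were. All 39 control regions with a fold of at least 10 had a knockdown partner (lower bound 91.0%, against 94.7% over all chromosomes), and all 36 such knockdown regions had a control partner (lower bound 90.3%, against 99.5%). Successive strong control summits were a median of 76.6 kb apart (interquartile range 44.6 to 136 kb), against 186 kb on the chromosome without the block. The 39 regions were 201 to 633 bp wide, with a median of 377 bp, and had 15 to 40 stacked reads with a median of 24. Their partners had 6 to 35 reads with a median of 26, and 36 of the 39 partners also had a fold of at least 10. Tandem zinc-finger genes have open promoters in closed surroundings, but whether these regions are promoters was not examined for want of an hg19 annotation.

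The highest control fold of the whole chromosome, 20.4, was found here, from 21105861 to 21106149. This region had 35 stacked reads at its summit and 81 in the surrounding 10 kb. Its knockdown partner, from 21105833 to 21106164, reached 16.9 with 32 reads at the summit and 107 in the surroundings. Its depth-scaled log2 ratio was -0.55. The next by control fold, from 21324609 to 21325223, reached 19.3 with 35 control and 33 knockdown reads, a ratio of -0.51. The third, from 23578151 to 23578527, had 40 control and 35 knockdown reads, and the fourth, from 21579580 to 21579993, had 34 and 28, ratios of -0.62 and -0.70. The widest control region of the block, from 23432808 to 23433440 (633 bp), reached 14.2, and its 28 control and 34 knockdown reads gave a ratio of -0.14. All of these were chosen for a high value in the control, a choice that favours low ratios, so no direction is read from them singly.

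Over all 62 pairs of the zinc-finger block the median log2 ratio was -0.25 (-0.42 to -0.15), against -0.08 (-0.10 to -0.05) on the chromosome without the block. Of these, 48 were below 0, or 77.4%. The surrounding 10 kb gave -0.24 (-0.35 to -0.17), against -0.01 (-0.03 to 0.01). Scaled to these surroundings, which hold the summits' own reads, the summits gave -0.02 (-0.10 to 0.11). Against genome pairs of like strength the summit ratio differed by 0.00 (-0.19 to 0.08), where the chromosome without the block was higher by 0.15 (0.13 to 0.19). The summit ratio of the block was thus that of the other chromosomes, -0.25, and its surrounding reads lay below their -0.14. Over the 39 pairs with a control fold of at least 10 the surrounding reads gave -0.28 (-0.40 to -0.15), against -0.22 (-0.22 to -0.21) for such pairs on the other chromosomes and -0.08 (-0.16 to -0.03) on chromosome 19 without the block.

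**Figure D4:**
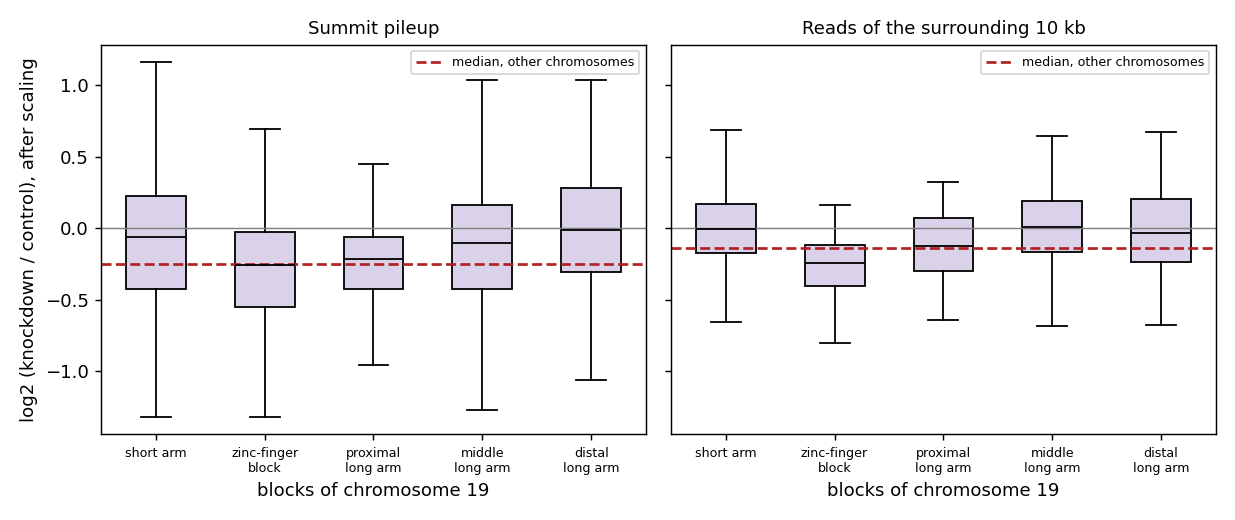
Log2 ratio of knockdown to control reads after scaling (vertical axis), over the pairs of each block, at the summit on the left (scaled by 1.34) and in the surrounding 10 kb on the right (scaled by 1.42). Boxes span the quartiles with the median as a line, whiskers reach up to 1.5 times the box length, points beyond are left out, and the dashed line is the median of the other chromosomes; the zinc-finger block has medians of -0.25 and -0.24 and the short arm -0.06 and 0.00.

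The control regions of the zinc-finger block without a partner were all among its weak regions. Of 40 control regions with a fold under 10, 23 had a partner, or 57.5% (40.9 to 73.0%), where the percentage over all chromosomes for such regions was 52.6%. For the 17 without a partner the fold was 4.84 and the summit 5 reads in the median, or 6.71 reads at knockdown depth. Of these 17, 6 lay within 500 bp of a control region that had a partner, as shoulders of it. The strongest of them, from 24097861 to 24097972 with a fold of 7.04 and 12 reads, was 0.012 kb from a knockdown region. Of the 7 knockdown regions without a control partner, 6 were shoulders of the same kind. The remaining one, from 19643152 to 19643240, led them with 6.05, and its nearest control region was 8.85 kb away.

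Within the block the knockdown list had no region from 22235609 to 23257868, a stretch of 1022 kb. The control list had 2 there, from 22728688 to 22728781 and from 22778827 to 22779019. They had 4 and 5 stacked reads, which scale to 5.37 and 6.71 in the knockdown library, near its lowest listed summit of 4. No strong region lay in the stretch in either library.

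The proximal long arm was the block with the fewest regions per Mb, and its share of control regions with a partner was close to that given by fold. It held 89 control and 62 knockdown regions, or 11.1 and 7.75 per Mb. The knockdown number was 69.7% of the control number (49.5 to 97.4%), against 75.4% over all chromosomes. It was 81.1% with q-values limited to 1e-05, where the other blocks had 94.5% to 114%. With lists of equal length it was 113%. Such lists have equal numbers over the whole genome by construction, and every block then had the higher knockdown number, from 110% to 128%. A partner was found for 49 control regions, or 55.1% (44.1 to 65.6%), against 55.3% given by fold. Of its regions that lay 10 kb or more from the next, 48.0% of 50 had a partner, against 57.1% of such regions over all chromosomes and 73.8% of 275 in the short arm. Its pairs had a median log2 ratio of -0.22 (-0.42 to -0.12), with -0.12 (-0.21 to -0.05) in the surrounding reads. Both ratios lay close to those of the other chromosomes, -0.25 and -0.14.

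The 9 strong control regions of the proximal long arm all had a partner, a share with a lower bound of 66.4% at this number. The strongest, from 33462848 to 33463229, reached 15.3 for the control and 13.1 for the knockdown, on 24 stacked reads each. The widest, from 33667998 to 33668530 (533 bp), had 20 reads in both. Equal reads give a scaled log2 ratio of -0.42, since a knockdown summit was expected to be 1.34 times as high. Without a partner, the top control region was that from 28271030 to 28271142, at 8.66 on 11 reads, with a knockdown region 4.97 kb away. The top knockdown region without one, from 30207580 to 30207695, reached 7.34 on 10 reads. The block also held the longest empty stretch outside the centromere in both lists, 1403 kb in the control from 30557917 to 31961319 and 1734 kb in the knockdown from 30433641 to 32167365.

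The middle long arm, the second largest block, resembled the short arm. It held 491 control and 447 knockdown regions, or 30.7 and 27.9 per Mb. A partner was found for 357 control regions, or 72.7% (68.5 to 76.6%), against 57.0% given by fold. Among knockdown regions the share was 77.2% (73.0 to 81.0%), against 78.3% given by fold. The pairs had a median log2 ratio of -0.10 (-0.16 to -0.01), and the surrounding reads 0.01 (-0.01 to 0.04). Regions of 600 bp or more made up 1.83% of control and 4.03% of knockdown regions, against 2.68% and 4.85% over all chromosomes. Its knockdown list thus held nearly as many regions as the control list without lying closer to it than fold would give.

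In the middle long arm, the highest control fold was 13.9, from 46498302 to 46498743, with 22 control and 24 knockdown reads, a log2 ratio of -0.30. The widest, from 45393695 to 45394459 (765 bp), had 21 and 23 reads, a ratio of -0.29. All 44 control regions with a fold of at least 10 had a partner (lower bound 92.0%). The top control region without one, from 37997662 to 37997849, reached 8.87 on 10 reads and lay 0.250 kb from a knockdown region. The top knockdown region without one, from 51843051 to 51843171, reached 9.63 on 13 reads and lay 0.023 kb from a control region. Both are near misses of the overlap rule and not isolated regions.

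The distal long arm had the highest share of control regions with a partner and the pair ratios nearest to the depth of the libraries. It held 183 control and 173 knockdown regions, or 26.1 and 24.7 per Mb, a knockdown number of 94.5% (76.3 to 117%). A partner was found for 147 control regions, or 80.3% (73.8 to 85.8%), where fold gives 59.9% and fold with width 64.4%. Among regions with a fold under 10 the share was 121 of 156, or 77.6% (70.2 to 83.8%), against the 52.6% of all chromosomes. The pairs had a median log2 ratio of -0.01 (-0.08 to 0.11), and 76 of 147 lay below 0. Among its 26 pairs with a control fold of at least 10, 25 lay below 0, with a median of -0.31 (-0.63 to -0.15). Such pairs had a median of -0.42 over all chromosomes, so the ratio near the library depth was not that of the strong pairs. Over all 147 pairs the values were as follows. Against pairs of like strength they were 0.26 higher (0.13 to 0.36), and the surrounding reads had a ratio of -0.04 (-0.09 to 0.03). The median fold in the knockdown list, 7.57, was the second highest of the blocks.

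The distal long arm also held the only strong regions of the chromosome without a partner. For the control it was that from 56592062 to 56592233, at 10.4 on 12 stacked reads, which scale to 16.1 reads at the depth of the knockdown library. The nearest knockdown region was 40.4 kb away, farther than for any other region named here. For the knockdown it was that from 52207409 to 52207560, at 11.1 on 14 reads, only 0.088 kb from a control region. The highest control fold, 13.7 from 58912559 to 58912929, went with 21 control and 22 knockdown reads, a ratio of -0.36. The widest, from 54640698 to 54641454 (757 bp), had 20 and 29 reads, a ratio of 0.11.

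The block limits are hg19 positions, and the regions next to them are given as a description. The last control region before 19500 kb had a fold of 12.1 and 25 reads, and the first one after it a fold of 3.63 and 4 reads. On either side of 36 Mb the control folds were 5.65 and 5.34, and around 52 Mb both were 4.84. Beyond 59 Mb, 9 of the 12 control and 8 of the 11 knockdown regions had a partner. Surrounding reads there were higher than in any of the blocks, with medians of 125 for control and 139 for knockdown regions.

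In windows of 1 Mb, the share with a partner was above that given by fold in 39 of 40 windows with at least 20 control regions, which restates along the arms the measure that chose the chromosome. All but 1 of the windows from 20 to 36 Mb had fewer regions and are not among the 40. Of 17 windows with 1 to 19 control regions, 5 lay below the share given by fold and 12 above it. Among these, that from 29 to 30 Mb had partners for 3 of 12 control regions, where fold gives 54.1%. The window from 50 to 51 Mb had partners for 31 of 36 control regions, or 86.1%, against 51.9% given by fold. That from 58 to 59 Mb had partners for 38 of 43, or 88.4%, against 65.2%. At the low end of the 40 were the windows from 13 to 14 Mb, with 17 of 32 or 53.1% against 48.2%, and from 16 to 17 Mb, with 12 of 22 or 54.5% against 56.7%. The knockdown list had at least as many regions as the control list in 9 of the 40 windows, among them 36 against 26 from 47 to 48 Mb. The windows named were picked on these values, as examples.

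Control regions without a partner on chromosome 19 were mostly weak. A fold under 6 was found in 83.5% of them, against 83.0% on chromosome 22 and 71.8% on all chromosomes other than 19. The 423 of them make up 27.8%, where the percentage over all chromosomes was 39.5%. Their median fold was 4.84 and the highest 10.4, against 4.95 and 19.2 on the other chromosomes; chromosomes 16, 17 and 22 had the same median of 4.84. Within 500 bp of a control region with a partner lay 66 of them, or 15.6%, against 7.09% elsewhere and 10.4% on chromosome 22. Of the 252 knockdown regions without a control partner out of 1328 (the percentage over all chromosomes was 20.6%), 78 lay within 500 bp of a paired knockdown region, or 31.0% against 18.3% elsewhere. Regions lay closer together on chromosome 19, with 374 of 1524 control regions within 500 bp of another, against 16.8% elsewhere, and the part of this spacing in the values was not tested.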

How the data were processed

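ATAC-seq was done on 2 libraries of Z-138 cells, 1 per group by genotype label. The authors deposited 1 peak list of 10 columns per library. Tools listed in the submitters' processing notes are bcl2fastq 2.17.1.14, BWA and MACS2, with hg19 as the build; parameters were not given in the sources used here. The deposited fold ratio, −log10 p-value and −log10 q-value belong to each peak's summit within its own library, and the deposited score is a whole number derived from the q-value. Peaks were called per library.

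Summit pileup and background were solved for every peak from fold and p-value by a Poisson tail, and gave back the deposited −log10 p on chromosome 19 within 1.70e-05. Peaks simulated from the solved values with the same formulas gave back all 55259 control and 41611 knockdown pileups. This checks that the formulas can be inverted after rounding, and not that the solved values are right. Read numbers assume a genome of 2.7 Gb. Background values above the lowest were whole reads per 10 kb (tolerance 0.02 reads) for all 43837 control and 35507 knockdown peaks that had one. Summit ratios were scaled by the ratio of the lowest backgrounds, 1.34, and surrounding reads by that of read numbers, 1.42. Pairs join each control region with the knockdown region of largest overlap, so 1 knockdown region can stand in more than 1 pair. Shares given by fold average the genome's share over 13 bands of fold; 14 bands of mean pileup served for pairs. The regions named were, per block, those of highest control fold, of highest fold without a partner in either list, and the widest control region; in the zinc-finger block, the next 3 by control fold were added after values were seen. Chromosome, blocks and lists were chosen with earlier results of these data known. Reads without molecular identifiers are not independent molecules, so intervals cover counting error only. Python 3.11.15, SciPy 1.17.1 and pandas 2.3.3 were used. Motifs, sequences and gene names, which need hg19, were not used here.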

Additional observations from a re-analysis of the deposited data

How the results depend on the processing

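With 1 library per group, no replicate could be left out. No paired analysis was possible because each group has 1 library. The knockdown number of chromosome 19 was 87.1% of the control. It became 97.2% when q-values were limited to 0.001, 103% at 1e-05 and 125% with lists of equal length. The knockdown number was thus no longer the lower one at 1e-05 or with equal lists. Equal lists have equal numbers over the whole genome by construction, and no value over all chromosomes is given here for the q-value limits. The share of control regions with a partner, 72.2%, was 77.0% at 0.001, 79.9% at 1e-05 and 85.8% with equal lists. It was 65.4% with 50% of the region covered, 53.7% when this was asked of both regions and 78.6% when a gap of 500 bp was allowed. For the knockdown list, 81.0%, the values in the same order were 78.2%, 76.6%, 68.3%, 71.3%, 61.7% and 88.9%. The excess over the share given by fold, 14.6 percentage points, was 7.91 with reciprocal overlap, 17.1 with the gap and 10.9 with fold and width. The share in the zinc-finger block, 78.5%, was 87.3% at 1e-05, 91.8% with equal lists and 64.6% with reciprocal overlap. The pair ratio, -0.10, was -0.17 with equal lists. Stricter lists hold fewer weak regions and wider or narrower overlap rules accept more or fewer partners by construction; beyond that the cause was not tested. The excess is built on the share that chose the chromosome, so its intervals describe counting error and are not a test. The 5 overlap rules and limits tried by block all used the same lists and are not independent support. In the short arm, middle and distal long arm the excess and its interval stayed above 0 under all 5 rules and limits. In the proximal long arm it lay between -4.63 and 9.03, and each interval included 0. In the zinc-finger block it lay between 4.07 and 12.5, and the interval excluded 0 only with the 500 bp gap. Without the zinc-finger block, chosen after seeing the data, the number was 87.3% and the share 71.9%. Regions of 3 to 5 stacked reads lie near the caller's limit in both libraries, and depth limits what can be said of them.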
